A study of Homo sapiens with 6 samples.

Results

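The BCL2 family decides whether a cell permeabilises its mitochondrial outer membrane and enters apoptosis. Anti-apoptotic members hold the effectors in check, BH3-only members bind and neutralise the anti-apoptotic ones or activate the effectors, and the effectors form the pore through which cytochrome c leaves the mitochondrion. To determine how the mRNAs of this family compare after induction of tristetraprolin (TTP), an RNA-binding protein that delivers mRNAs with AU-rich elements to decay, 10 genes were examined. They were the anti-apoptotic *BCL2*, *BCL2L1* and *MCL1*, the effectors *BAX* and *BAK1*, and the BH3-only genes *BCL2L11*, *BID*, *PMAIP1*, *BBC3* and *BIK*, chosen by gene name. All 10 were found among the 22933 gene symbols in the authors' table of 406165 assembled loci. Each symbol was represented by its locus with the most RefSeq names and then the highest summed value.

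The cells were PC-3, an established line from a bone metastasis of a human prostate adenocarcinoma. Both groups carried the reverse tetracycline transactivator rtTA2 from a pRetroX-Tet-On-Advanced retrovirus, after selection with G418, and both received 300 ng/ml doxycycline (Dox) for 4 hours. The control group (tdTom, 3 samples) carried pRetroX-Tight-pPGK-tdTomato, and the other (TTP-tdTom, 3 samples) pRetroX-Tight-TTP-pPGK-tdTomato, in which the Tet-responsive promoter drives TTP and the PGK promoter drives the fluorescent marker. Transduced cells were sorted by flow cytometry, and nothing in the labels says that the 3 samples of a group came from separate transductions. The values analysed here are FPKM (fragments per kilobase of transcript, scaled to the mapped fragments of a library), 1 per group and locus. The spread between samples and the number of fragments behind a value are therefore not known here, and no difference below carries a test.

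*ZFP36*, the gene that encodes TTP, stood at 5.56 FPKM in tdTom cells and at 5.54 in the group labelled TTP-tdTom. The locus therefore shows no rise with the label. Whether fragments of the TTP transgene were counted at this locus is not known from the table. Directions below are between the groups as labelled. Of the epithelial markers, *KRT8*, *KRT18* and *EPCAM* stood between 15.1 and 98.2 FPKM in both groups, whereas *CDH1* was at 0.119 and 0.390. A second *CDH1* locus of the same span was at 0.210 and 0.282. Of the markers of other cells, the leukocyte gene *PTPRC* was at 0.243 and 0.566 at the locus with the most RefSeq names and at 1.67 and 0 at a second one, the endothelial gene *PECAM1* at 0.483 and 0.793, and the collagen gene *COL1A1* at 4.34 and 4.56. *COL1A1* had 9 loci of the same span with 1 RefSeq name each, and these values belong to the highest. The others were under 1 FPKM in both groups.

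AU-rich elements in the 3′UTR are the sites to which TTP binds, so the longest 3′UTR that GENCODE release 29 gives each of the 10 genes was read on the transcript strand for the heptamer UAUUUAU and for the nonamer UUAUUUAUU that contains it. The heptamer was found 10 times in 5 genes, and in 2 of these, *BCL2* and *PMAIP1*, 1 copy was part of a nonamer. *BAX*, *BAK1*, *BID*, *BBC3* and *BIK* held neither. The sites are shown because they are where the sequence of these mRNAs meets the binding preference of TTP. Each is given as 27 bases from 5′ to 3′, with the heptamer, or the nonamer where there is one, in capitals, and positions are those of GRCh38.

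The anti-apoptotic genes held the following sites. The heptamer of *BCL2* starts at base 255 after the stop codon (chr18:63128354-63128380, minus strand), that of *BCL2L1* at base 1250 (chr20:31664683-31664709, minus strand), and those of *MCL1* at bases 1551, 2166 and 2194 (chr1:150575808-150575834, chr1:150575193-150575219 and chr1:150575165-150575191, minus strand).
BCL2 site: aaaaaagauUUAUUUAUUuaagacagu
BCL2L1 site: agcgugucugUAUUUAUgugugaggag
MCL1 site 1: ccucuacagaUAUUUAUaucaauuccu
MCL1 site 2: uuuaccuaugUAUUUAUcguucuugau
MCL1 site 3: auaagccgcuUAUUUAUaucauguauc

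The BH3-only genes held the others. Those of *BCL2L11* start at bases 2909 and 3130 after the stop codon (chr2:111166864-111166890 and chr2:111167085-111167111, plus strand). Those of *PMAIP1* start at bases 1219, 1232 and 1467 (chr18:59903962-59903988, chr18:59903975-59904001 and chr18:59904210-59904236, plus strand), and the windows of its first and second sites overlap.
BCL2L11 site 1: auauugugagUAUUUAUuagauucgua
BCL2L11 site 2: aaauauuguaUAUUUAUuuucugcuua
PMAIP1 site 1: ggaauaauuUUAUUUAUUuugccuauu
PMAIP1 site 2: uuauuuugccUAUUUAUaauuaaagua
PMAIP1 site 3: uaccaucuggUAUUUAUggucuaauuu

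A heptamer is common in a long 3′UTR. Among 11047 symbols that reached 1 FPKM in either group and had an annotated 3′UTR, 36.2% held the heptamer and 9.45% the nonamer. In 3′UTRs of similar length (from 0.8 times to its reciprocal), the heptamer was present in 74.4% of symbols for *BCL2* (5279 bases), 68.8% for *BCL2L11* (4480 bases), 55.0% for *MCL1* (2824 bases), 35.8% for *PMAIP1* (1553 bases) and 34.8% for *BCL2L1* (1497 bases). The nonamer of *PMAIP1* was rarer, at 7.27% of 3′UTRs of like length, against 23.8% for that of *BCL2*. The isoforms of a locus differ in these sites. Of the transcripts that GENCODE pairs with the RefSeq names of the locus, 1 of 2 for *BCL2*, 2 of 3 for *MCL1* and 8 of 11 for *BCL2L11* held a heptamer, and the authors' value does not separate them.

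In the control cells the levels of the family spanned a wide range. On the FPKM scale, which divides by transcript length and so allows genes to be compared, *BCL2L1* (encoding BCL-XL) was the most abundant at 26.1, followed by *MCL1* at 22.0, *BAK1* at 20.7 and *BAX* at 11.3. *BCL2L11* (BIM) stood at 8.53 and *BID* at 6.40, near the middle of all symbols, with 50.2% and 42.1% of them lower. *PMAIP1* (NOXA) and *BCL2* were low, at 1.40 and 1.17, and *BIK* and *BBC3* (PUMA) were under the filter of 1 FPKM in both groups. Which neighbours in this order differ beyond the spread of samples cannot be said from 1 value per group, and in bulk RNA fewer cells that express a gene and less RNA per cell cannot be told apart.

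**Figure D1:**
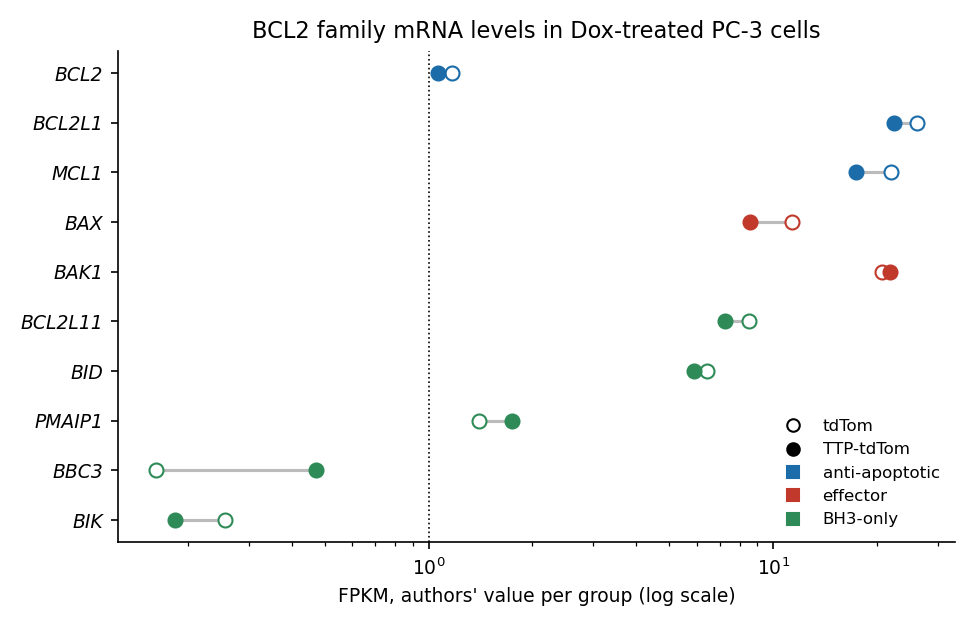
FPKM of the 10 genes (log scale), open circles for the tdTom group and filled circles for the group labelled TTP-tdTom, coloured by role, with the filter of 1 FPKM dotted. *BCL2L1*, *MCL1* and *BAK1* sit near 20 FPKM in both groups, *BCL2* and *PMAIP1* between 1 and 2, and *BBC3* and *BIK* under 1.

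None of the 8 genes above the filter differed by 1.5-fold between the groups. The filter asked for 1 FPKM or more in either group and a value above 0 in both, which 13004 symbols passed, and the 8 genes were at or above 1 in both groups. Of the 13004 symbols, 22.8% were lower by at least 1.5-fold in the group labelled TTP-tdTom and 3.9% were higher, so that 0 of 8 genes in either direction stood beside those shares. The log2 ratios of FPKM (TTP-tdTom over tdTom) of the 8 genes lay between -0.40 and 0.31, a range that held 59.2% of all symbols, with a median of -0.17. The median of all symbols was -0.23, and 6 of the 8 genes had a ratio above it, *BCL2L11* by only 7.18e-06, which places it at the median. In FPKM as deposited 6 genes were lower in the group labelled TTP-tdTom and 2 higher, a share of lower genes near the 78.5% of all symbols that were lower, and once ratios were centred on the all-symbol median *BCL2*, *BCL2L1* and *BID* changed to the higher side and *BCL2L11* came to lie at 0.

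**Figure D2:**
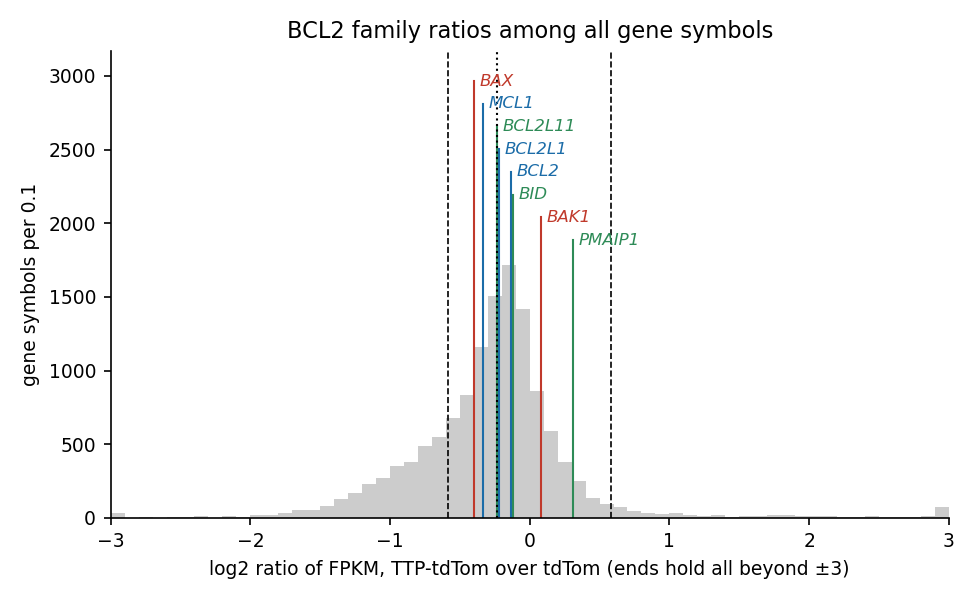
Histogram of the log2 ratio of FPKM (TTP-tdTom over tdTom) over 13004 gene symbols, in steps of 0.1, with the 8 genes above the filter as labelled lines coloured by role (blue, anti-apoptotic; red, effector; green, BH3-only). The dotted line is the median of all symbols (-0.23) and the dashed lines mark 1.5-fold, which none of the 8 genes reaches.

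All 3 anti-apoptotic genes had a lower FPKM in the group labelled TTP-tdTom, as did 78.5% of all symbols. *MCL1*, whose short-lived protein holds BAK and NOXA, spans bases 150540803 to 150553241 of chromosome 1 (GRCh37, as for every locus below). It was at 22.0 FPKM in tdTom cells and 17.4 in the other group. That is 79.3% of the control level and a log2 ratio of -0.33. *BCL2L1*, on chromosome 20 from 30252147 to 30311386, was at 26.1 and 22.4 FPKM, 86.0% of the control level (log2 ratio -0.22). *BCL2*, the founding member, on chromosome 18 from 60790579 to 60986613, was at 1.17 and 1.07, or 91.3% (log2 ratio -0.13). The sum over the 3 genes went from 49.3 to 41.0 FPKM, 83.1% of the control. Its make-up was similar in both groups, *BCL2L1* holding 53.0% and 54.8% of it, *MCL1* 44.6% and 42.6%, and *BCL2* 2.37% and 2.60%. Of these genes only *MCL1* lay below the median of all symbols, with a difference of -0.099 on the log2 scale. Symbols with a control FPKM within the same factor of that of *MCL1* (1218 symbols) had a median of -0.33, and 31.4% of them were lower by at least 1.5-fold.

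The effectors differed from each other in direction. *BAX*, whose protein moves from the cytosol to mitochondria, lies on chromosome 19 from 49458092 to 49465055. It was at 11.3 FPKM in tdTom cells and 8.56 in the group labelled TTP-tdTom, 75.7% of the control level and, with a log2 ratio of -0.40, the lowest ratio of the 8 genes. Of all symbols 33.7%, and of the symbols of like level 41.7%, had a lower ratio than *BAX*. *BAK1*, whose protein resides in the outer membrane, lies on chromosome 6 from 33540323 to 33548070 and was at 20.7 and 21.9 FPKM (log2 ratio 0.081). As a result *BAK1* was 1.83 times as abundant as *BAX* in the control group and 2.55 times in the other, a change of 0.48 on the log2 scale. Under centring on the median of all symbols *BAX* stayed below 0 and *BAK1* above it. *BAK1* had a higher ratio than 84.2% of all symbols and than 94.2% of the 1248 symbols of like level.

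Of the BH3-only genes, *BCL2L11* lay at the median of all symbols and *BID* 0.12 above it on the log2 scale. *BCL2L11*, encoding BIM, which binds every anti-apoptotic member, lies on chromosome 2 from 111878144 to 111926161 and was at 8.53 and 7.24 FPKM, 85.0% of the control level. Its log2 ratio of -0.23 was higher than that of 50.0% of all symbols. *BID*, which links death receptors to mitochondria after cleavage by caspase-8, lies on chromosome 22 from 18216069 to 18257431 and was at 6.40 and 5.91 FPKM (log2 ratio -0.12). Of all symbols, 65.6% had a lower ratio than *BID*. A locus without a gene symbol shares the span of *BID*, at 0.700 and 1.56 FPKM, and 3 such loci share that of *MCL1*, none above 1.31 FPKM in either group.

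*PMAIP1* was the only one of the 8 genes besides *BAK1* with a higher FPKM in the group labelled TTP-tdTom. It encodes NOXA, which binds MCL1 and marks it for destruction. The gene lies on chromosome 18 from 57566228 to 57571538, and it was at 1.40 FPKM in tdTom cells and 1.74 in the other group, 124% of the control level and a log2 ratio of 0.31. A second locus of the same span and symbol was at 0.474 and 0.426 FPKM, and the sum of both loci had a log2 ratio of 0.21. With a pseudocount of 1 the ratio was 0.19. *MCL1* was 15.7 times as abundant as *PMAIP1* in the control group and 10.0 times in the other, so that the quotient of the pair moved by -0.65 on the log2 scale. This gene is near the filter, where ratios lay higher than over all symbols. Over the 944 symbols of like level the median log2 ratio was -0.094, against -0.23 over all symbols. The quartiles at that level were -0.43 and 0.19, and 86.1% of these symbols had a lower ratio than *PMAIP1*.

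*BBC3* and *BIK* were under the filter. *BBC3*, whose protein binds every anti-apoptotic member, lies on chromosome 19 from 47724079 to 47736023 and was at 0.161 FPKM in tdTom cells and 0.472 in the other group. *BIK*, on chromosome 22 from 43506754 to 43525718, was at 0.257 and 0.183. The ratio of *BBC3*, 2.92-fold or 1.55 on the log2 scale and 0.34 with a pseudocount of 1, compares values far under the filter. Of the 7801 symbols above 0 in both groups and under 1 FPKM in both, 28.4% were higher by at least 1.5-fold and 15.2% lower, with a median log2 ratio of 0.18.

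The heptamer did not separate the lower genes from the higher ones in this family. The 5 genes with a heptamer had log2 ratios from -0.33 to 0.31 with a median of -0.22, and the 3 genes above the filter without one had ratios from -0.40 to 0.081 with a median of -0.12. Over the 11047 symbols above the filter with an annotated 3′UTR, the median log2 ratio was lower with more copies. It was -0.17 with no heptamer (7050 symbols), -0.36 with 1 copy (2285), -0.53 with 2 (907), -0.61 with 3 (415) and -0.63 with over 3 (390). The ratio of *MCL1*, with 3 copies, was higher than that of 69.6% of the other symbols with 3 copies, and the ratio of *BCL2L11*, with 2, higher than that of 74.3% of the other symbols with 2. *BCL2* and *BCL2L1*, with 1 copy each, were above 74.5% and 64.5% of theirs. The largest distance was that of *PMAIP1*, whose 3 copies include a nonamer and whose ratio was above 96.1% of the symbols with 3 copies. *BAX*, with the lowest ratio of the 8 genes above the filter, has no heptamer, and 23.2% of symbols without one had a lower ratio.

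GC content moves with the ratio over the same 11047 symbols and differs within the family. From the lowest to the highest decile of transcript GC content the median log2 ratio went from -0.77 to -0.084, and the median GC content was 51.6% in symbols with no heptamer against 40.6% in those with 3. Set against the decile of its own GC content, *BAX* (58.9% GC) differed by -0.30 from the median of -0.11, and 10.4% of that decile had a lower ratio. *BAK1*, of nearly the same GC content (58.8%), differed by 0.19, with 80.7% of the decile lower. *PMAIP1* had the lowest GC content of the 10 genes, 37.2%, and its ratio was 1.08 above the median of its decile, higher than 96.5% of it. Among the 56 symbols of that decile with a control level like that of *PMAIP1*, the median was -0.18 and 8 had a higher ratio. *BCL2*, *MCL1*, *BCL2L11* and *BID* lay between 0.079 and 0.12 above their deciles, and *BCL2L1* differed by -0.11. Among the 63 symbols of its decile with a control level like its own, *BCL2* lay below the median of -0.006, with 41.3% of them lower. That range of levels reaches under 1 FPKM in tdTom cells, where only symbols higher in the other group pass the filter. The filter can therefore raise this median. In the same comparison *MCL1*, *BCL2L11* and *BID* stayed above their medians, with 71.7%, 72.9% and 69.2% lower. The part of GC content in these differences was not tested.

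**Figure D3:**
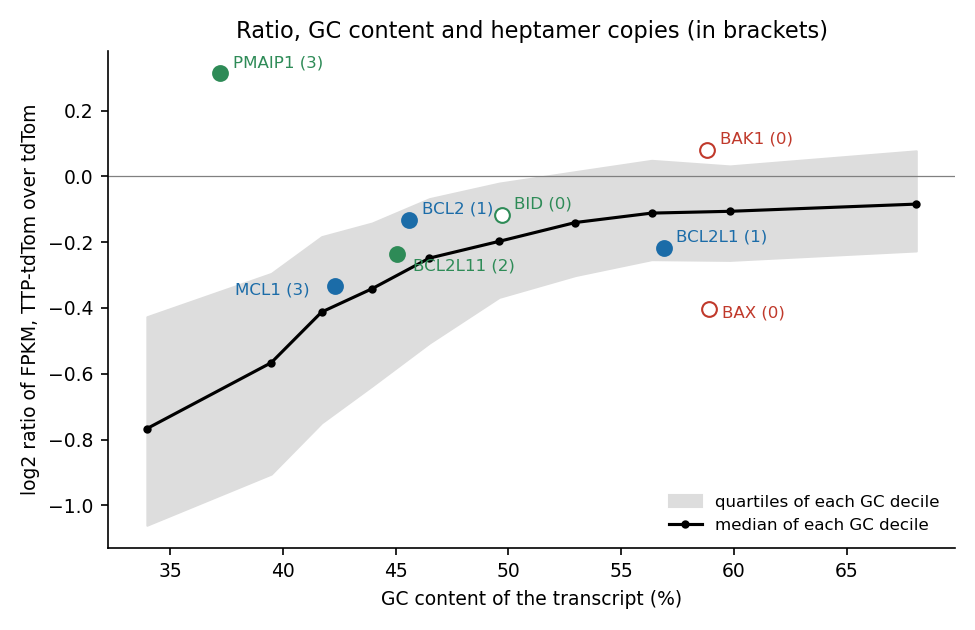
Log2 ratio of FPKM (TTP-tdTom over tdTom) against the GC content of the transcript for the 8 genes above the filter, coloured by role, filled where the 3′UTR holds the heptamer, with the number of copies in brackets. The line and band are the median and quartiles of each GC decile of 11047 symbols. *PMAIP1*, with 3 copies, lies above the band at 37.2% GC and *BAX*, with 0, below it at 58.9% GC.

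Other genes of the pathway were taken from 3 lists. Of 13 further members of the family and its relatives, 10 were above the filter, with a median log2 ratio of -0.099. Of these, 1 was lower by at least 1.5-fold and 2 were higher. The lower one was *BNIP3*, a hypoxia-induced gene of mitophagy, at 77.3 FPKM in tdTom cells and 31.8 in the group labelled TTP-tdTom (log2 ratio -1.28). Its longest 3′UTR holds no heptamer, and 3.44% of its GC decile had a lower ratio. Its relative *BNIP3L* was at 35.4 and 26.1 FPKM (log2 ratio -0.44). The higher ones were the BH3-only genes *BMF*, at 0.796 and 1.40 FPKM, and *HRK*, at 0.681 and 1.09, both of which passed the filter only through the group in which they were high. The anti-apoptotic *BCL2L2*, at 49.3 and 45.4 FPKM, shares its locus with *PABPN1*, so its level cannot be told apart from that of its neighbour. *BAD*, a BH3-only gene held back by phosphorylation, was at 25.8 and 24.9 FPKM.

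Of 6 genes that govern the turnover of the MCL1 protein, 5 were above the filter and 1 was lower by at least 1.5-fold. This was *MARCH5*, an E3 ligase of the mitochondrial outer membrane, at 12.7 FPKM in tdTom cells and 6.49 in the other group (log2 ratio -0.96). Its 3′UTR holds 1 heptamer, and 21.5% of its GC decile had a lower ratio. The deubiquitinase *USP9X*, which stabilises MCL1, was at 28.8 and 19.3 FPKM, or 66.8% of the control level (log2 ratio -0.58). Of the ligases that mark MCL1 for the proteasome, *HUWE1* was at 68.2 and 55.0 FPKM, *FBXW7* at 23.4 and 22.0, and *BTRC* at 4.02 and 5.12. Of the genes above the filter, 4 of 5 thus had a lower FPKM in the group labelled TTP-tdTom, beside 78.5% of all symbols, and *FBXW7* turned to the higher side when ratios were centred on the all-symbol median.

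Of 7 partners in the outer membrane and factors released through it, all were above the filter and 2 were lower by at least 1.5-fold. *CYCS*, which encodes cytochrome c, was at 43.1 and 17.1 FPKM (log2 ratio -1.33). Its 3′UTR holds 2 heptamers, 1 of them in a nonamer, and 6.73% of symbols with 2 heptamers and 3.54% of its GC decile had a lower ratio. *VDAC2*, the channel that holds BAK in the outer membrane, was at 665.7 and 371.8 FPKM (log2 ratio -0.84), with no heptamer and 9.24% of its GC decile lower, while *VDAC1* and *VDAC3* had ratios of -0.18 and -0.26. The released inhibitors of IAP proteins *DIABLO* and *HTRA2* had log2 ratios of 0.080 and -0.037. Over the 3 lists together 4 of 22 genes above the filter were lower by at least 1.5-fold, beside 22.8% of all symbols. The 2 that were higher, beside 3.9% of all symbols, were *BMF* and *HRK*, which were under 1 FPKM in the tdTom group. Symbols past the filter with a GC decile and control level like theirs were likewise under 1 FPKM in the tdTom group. Such symbols pass the filter only when higher in the group labelled TTP-tdTom, so their direction was fixed in advance. Their median log2 ratios were 0.63 for *BMF* (23 symbols, 73.9% with a lower ratio) and 0.65 for *HRK* (18 symbols, 50% with a lower ratio). These medians therefore cannot tell whether a rise is common at this level.

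**Figure D4:**
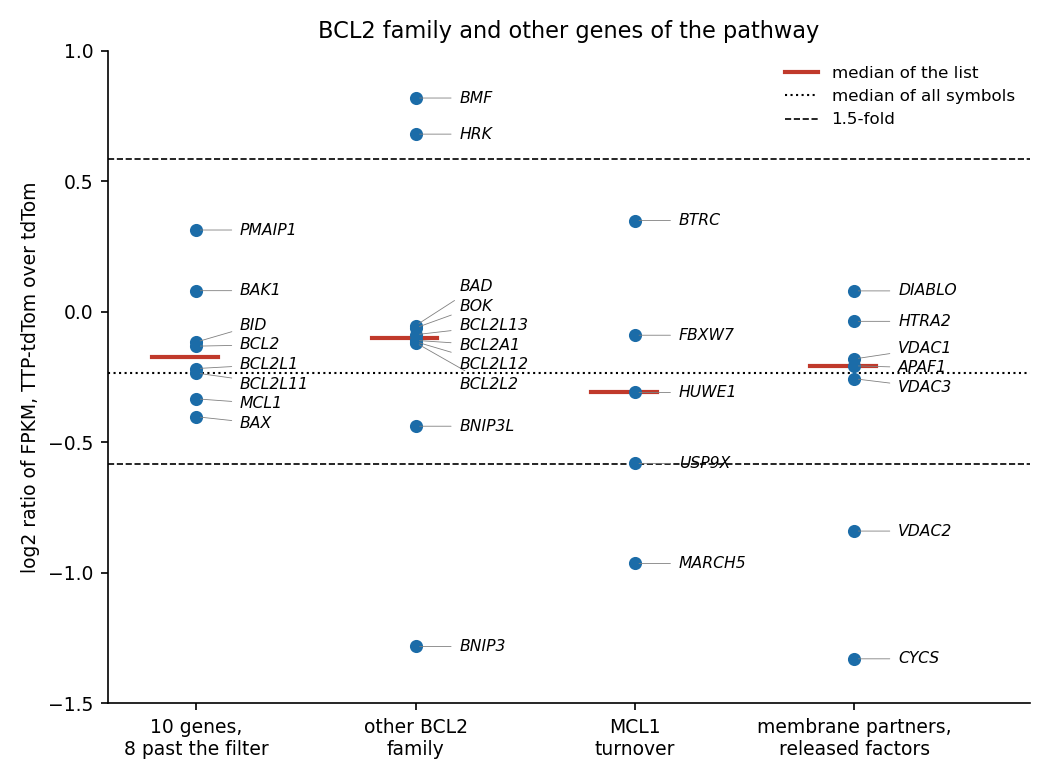
Log2 ratio of FPKM (TTP-tdTom over tdTom) for the 8 BCL2 family genes above the filter and for the genes above the filter in 3 further lists, 1 point a gene, with each list's median as a red bar. The dotted line is the median of all symbols and the dashed lines mark 1.5-fold. *BNIP3*, *MARCH5*, *CYCS* and *VDAC2* lie below the lower line, and *BMF* and *HRK* above the upper one.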

How the data were processed

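RNA was collected from 3 tdTom and 3 TTP-tdTom samples. According to the methods and the submitters' processing notes, paired-end reads of strand-specific libraries went through TopHat2 2.0.13 (Hs37D5, that is GRCh37 with decoy sequence) and then Cufflinks 2.2.1. The authors' deposited table used here holds FPKM, 1 per group and assembled locus. The table's columns of fold changes, test statistics, p and q hold the authors' own comparison and were not used. Starts of loci were counted from 1. Ratios were computed here with no pseudocount, and no test was possible with 1 value per group. The filter was an FPKM of at least 1 in either group and above 0 in both, and a difference of 1.5-fold was counted. A locus with several symbols was counted for each. 3′UTRs, GC content and heptamers come from the protein-coding transcript with the longest 3′UTR in GENCODE release 29 (GRCh38), matched by symbol for 85.0% of symbols past the filter. No coordinate was converted between builds. The genes and lists were chosen with earlier results of these data known. All 10 family genes and *ZFP36* were named, from each further pathway list at most the 3 lowest and the 3 highest ratios, and beside them markers of the cell line. The functions were tested on simulated data. Scripts ran under Python 3.11.15 (matplotlib 3.10.9, numpy 2.4.6, pandas 2.3.3). Alternatives were other pseudocounts, filters, folds, scalings and choices of locus. Some checks of the cell line are not reported here.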

Additional observations from a re-analysis of the deposited data

How the results depend on the processing

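No paired analysis was possible because the table used here gives 1 value per group, and for the same reason leaving out each replicate and fits with a replicate block were not run. The number of fragments counted behind each FPKM is not known here, so no interval is given. The number of the 10 genes lower by at least 1.5-fold, 0 of 8 above the filter, was 2 (*MCL1* and *BAX*) at 1.2-fold, a fold chosen after seeing the data at which 46.7% of all symbols were lower, and also 2 at a planned fold slightly above it, with 40.4% of all symbols lower. The number higher by at least 1.5-fold, also 0, was 1 (*PMAIP1*) at 1.2-fold, beside 8.41% of all symbols, and 1 (*BBC3*) with a minimum FPKM of 0.1 and with no filter, beside 12.8% and 13.1%. The median log2 ratio of -0.17 was -0.15 with a pseudocount of 1, -0.28 over the 4 genes with an FPKM of at least 10, -0.12 after scaling to the same FPKM sum over loci with a symbol, and 0.060 when centred on the all-symbol median of -0.23. At an FPKM of at least 10 the all-symbol median was -0.29. With a minimum FPKM of 0.1 and with no filter the median of the 10 genes was -0.175. It then lay below the all-symbol medians of -0.153 and -0.151, so its place above the all-symbol median depends on the filter. Counts at 2-fold, and under the other filters, pseudocounts, scalings and locus choices, were 0 in both directions.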
